A study of Homo sapiens with 8 samples.

Results

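MAF, a basic leucine zipper transcription factor, was bright on the arrays of some t(4;14) myeloma lines and dim on others, and the genes described here were chosen by their position along the same divide. KMS11 and KMS34 had MAF intensities above 300 and formed the MAF-higher side, and KMS18 and OPM2 had intensities below 200 and formed the MAF-lower side. A gene was selected from its own intensities: the mean log2 values of both lines of one side had to lie beyond those of both lines of the other side. Of 14812 measured genes, 7184 met this rule (48.5%). They comprised 2826 genes higher in KMS11 and KMS34 (19.1% of all genes) and 4358 genes lower there (29.4%). Because the divide itself chose the genes, differences between the sides are given below as a description without a test.

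KMS11, KMS34, KMS18 and OPM2 are established human multiple myeloma cell lines, and the labels give all 4 as carrying the t(4;14) translocation, which places NSD2 (also called MMSET) and FGFR3 under immunoglobulin heavy chain enhancers. In each line 1 culture was labelled control and 1 was labelled with a knockdown of MMSET I, the short product of NSD2, so that each side held 4 arrays and each line 2. All cultures, controls included, belong to a lentiviral infection protocol with 8 µg/mL polybrene, a medium change after a day and RNA extraction 48 h later, whereas the design text speaks of 72 h with shRNAs, for KMS11 alone. What the control vector carried, and the shRNA sequences, are not given in the sources used here. Affymetrix Human Gene 2.0 ST arrays, which read 1 sample each, gave linear intensities. For the 651 genes with several rows the brightest row was used, so each gene has 1 intensity per array. No line and condition was cultured more than once, so a side is represented by 2 lines, and anything else that differs between these pairs of lines cannot be told apart from their MAF level.

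MAF binds DNA as a dimer at MAF recognition elements, which hold an AP-1-like or CRE-like core flanked by GC-containing extensions. In myeloma a separate translocation, t(14;16), drives MAF directly, and lines or tumours with t(4;14) can also carry MAF transcripts. Genes known to follow MAF in myeloma include the cyclin gene CCND2, the integrin gene ITGB7, the chemokine receptor gene CCR1 and DEPTOR, an inhibitor of mTOR kinase. JUN and FOS proteins belong to the same leucine zipper superfamily and form the AP-1 dimers.

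MAF itself (chromosome 16, 79202622 to 79600737, GRCh38) gave intensities of 1158 and 1424 in KMS11, 414 and 379 in KMS34, 72.2 and 54.2 in KMS18, and 166 and 173 in OPM2, the control array first in each pair. KMS11 was the highest line and KMS18 the lowest, and no array of one side reached the other side. The lower of the higher lines, KMS34, exceeded OPM2 by 1.23 on the log2 scale, which is 2.34-fold; this distance between the nearest lines of the 2 sides is called the gap below. KMS11 exceeded KMS34 by more than KMS34 exceeded OPM2, so the division by MAF is one cut through 4 unequal levels. The knockdown changed MAF by a mean of -0.05 on the log2 scale (SE 0.0962, n = 4 lines), which did not pass (limma adjusted p = 0.927), and an exact two-sided permutation test within lines gave p = 0.75, where 0.125 was the smallest p possible with 16 arrangements.

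NSD2, the targeted gene, gave 733 and 670.0 in KMS11, 744 and 677 in KMS34, 679.9 and 549 in KMS18, and 814 and 728 in OPM2. It was lower on the knockdown array in all 4 lines, by 0.18 on the log2 scale (SE 0.0636), which did not pass the test over all genes (limma adjusted p = 0.472). The table does not say which NSD2 transcripts its row measures, so this value does not check the knockdown of the short product alone. NSD2 lay at like levels on both sides, and FGFR3 gave 2410.3 and 2256 in KMS11, 1061 and 889 in KMS34, 1403 and 1326 in KMS18, and 1457 and 1358 in OPM2, with KMS11 highest and KMS34 lowest. Neither of these t(4;14) genes, nor DSG2, LETM1 or SLBP from the same list, separated the 2 sides.

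Array-wide values moved with the divide. The median intensity over all rows was 49.3 to 51.2 on the 4 arrays of KMS11 and KMS34 and 53.0 to 53.5 on those of KMS18 and OPM2, while the third quartile over the 14812 genes was 194 to 210 and 174 to 177. Arrays of 1 line correlated at 0.991 to 0.993 over the 11109 genes above the 25th percentile of mean log2 value, which also gave the next ranges. KMS11 with KMS34 gave 0.908 to 0.915, KMS18 with OPM2 gave 0.893 to 0.895, and arrays of opposite sides gave 0.880 to 0.900. The plasma cell label was checked on marker genes. XBP1, the transcription factor of the secretory programme, lay between 1266 and 2766 on the 8 arrays, and SDC1, the surface proteoglycan CD138, between 844 and 1112. Other plasma cell genes were dim, with line means of 74.4 to 82.4 for POU2AF1 and 31.1 to 40.7 for FCRL5. The B cell gene CD24 and the stromal gene DCN had line means of 22.1 to 23.6 and 22.9 to 24.6, but other B cell genes were bright in 1 line: BTLA, an inhibitory receptor, had 30.5 in KMS11, 31.3 in KMS34, 1509.7 in KMS18 and 28.8 in OPM2, and BANK1, a B cell scaffold protein, had 40.0 in KMS11, 381 in KMS34, 44.3 in KMS18 and 33.6 in OPM2.

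Most genes of the group separated the sides by little. The median gap was 0.15 on the log2 scale for the higher genes and 0.10 for the lower genes, and the gap was under 0.1 for 1091 higher genes (38.6%) and 2155 lower genes (49.4%). At the edge of the rule lay YBX3 and ZNF627 on the higher side, with gaps of 0.00030 and 0.00031, and KIF5A and DHRS7C on the lower side. DHX38 and PHC3 fell just outside on the higher side, and LITATS1 and SERGEF on the lower side. A gap of at least 0.5 was reached by 339 higher genes (2.29% of all genes) and 90 lower genes (0.608%), and a gap of at least 1 by 80 and 10. The wide gaps thus lay mainly among genes brighter in KMS11 and KMS34, although the lower genes were more numerous. On single arrays, 1678 of the higher genes (59.4%) and 2041 of the lower genes (46.8%) had no array of one side reaching the other side.

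Brightness and direction were linked. Of the genes in the dimmest quartile class 11.5% were higher and 39.5% lower in KMS11 and KMS34, and of those in the second class 12.4% and 44.5%. The third class held 23.1% and 24.4%, and the brightest class 29.3% and 9.32%. The median intensity was 141 for the higher genes and 61.0 for the lower genes, against 85.4 for all genes. In 1243 of the lower genes and 355 of the higher genes even the brightest line lay below an intensity of 46.7, the 25th percentile of gene means. Genes with a mean above that percentile were tested for the knockdown, and these were 2400 of the higher genes (84.9%) and 2897 of the lower genes (66.5%). The part of array-wide scaling in these shares was not tested.

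**Figure D1:**
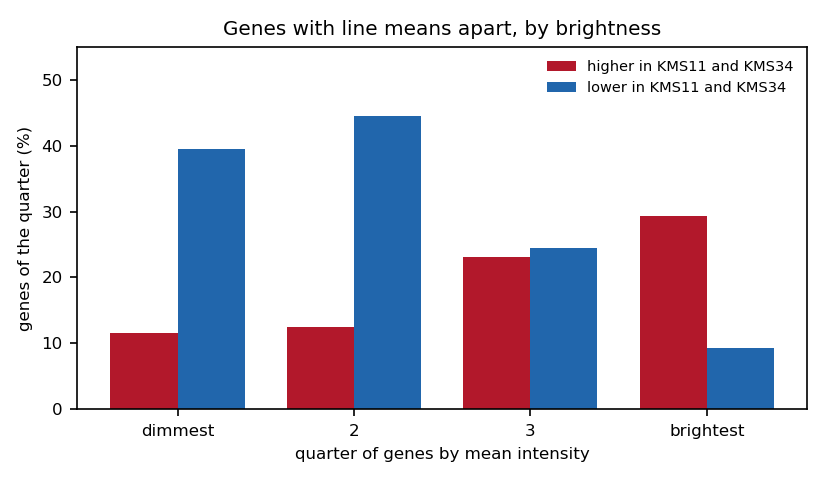
Bars show the percentage of the genes of each quartile class of mean intensity (x axis, dimmest to brightest) whose line means were higher (red) or lower (blue) in KMS11 and KMS34 than in KMS18 and OPM2. Lower genes reach 44.5% in the second class and drop to 9.32% in the brightest, whereas higher genes reach 29.3% in the brightest.

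The order of the 4 lines varied within each direction. Among the higher genes, 748 had the order of MAF itself, with KMS11 first, then KMS34, OPM2 and KMS18, while 816 had KMS11 first and OPM2 last. In 648 genes KMS34 came first and OPM2 last, and in 614 KMS34 came first and KMS18 last. Among the lower genes KMS11 was the lowest line in 1437 with KMS18 highest and in 1335 with OPM2 highest, and KMS34 was the lowest in 774 with KMS18 highest and in 812 with OPM2 highest. MAF's own order was thus 1 of 4 orders of similar frequency.

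The widest gap belonged to PEG10, an imprinted gene derived from a retrotransposon, with 963 and 880.5 in KMS11, 2381 and 1953 in KMS34, 43.4 and 54.0 in KMS18, and 49.9 and 58.9 in OPM2. All arrays of KMS11 and KMS34 were far above all others, KMS34 highest, and the gap was 4.09 or 17.0-fold. CD99, a surface glycoprotein of leukocytes and other cells, gave 964 and 1075 in KMS11, 859 and 797 in KMS34, 81.8 and 89.5 in KMS18, and 93.8 and 94.6 in OPM2. The lines within each side were close, and the gap was 3.13 (8.78-fold). KIFBP, a kinesin-binding protein, had line means of 351 in KMS11, 255 in KMS34, 34.8 in KMS18 and 35.6 in OPM2, and JAKMIP2, a protein that binds Janus kinases and microtubules, had 350.2 in KMS11, 305 in KMS34, 50.6 in KMS18 and 30.8 in OPM2. The 2 lines of a side lay much closer to each other than to the other side, and the gaps were 2.84 and 2.59.

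Secreted proteins were encoded by some of these genes. HGF, the ligand of the receptor MET, gave 858 and 846 in KMS11, 229 and 217 in KMS34, 31.8 and 35.4 in KMS18, and 32.7 and 35.0 in OPM2; KMS11 was the brightest line, and KMS18 and OPM2 lay near the bottom of the scale, for a gap of 2.72 (6.58-fold). IGF1, a growth and survival factor for plasma cells, gave 433 and 497 in KMS11, 429 and 442 in KMS34, 89.2 and 89.1 in KMS18, and 61.6 and 78.2 in OPM2. Its KMS11 and KMS34 arrays were nearly level, and the gap was 2.29 (4.89-fold). The neurotrophic factor gene NDNF had line means of 327 in KMS11, 196 in KMS34, 38.4 in KMS18 and 106 in OPM2, a gap of 0.89. CLU, a secreted chaperone, had 175 in KMS11, 449.8 in KMS34, 38.5 in KMS18 and 48.5 in OPM2, and the complement genes C4B and C4A had gaps of 2.04 and 1.97; C4A and C4B are near-identical copies, so their rows cannot be read as separate genes.

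SOX2, a transcription factor of stem and neural cells, gave 563 and 544 in KMS11, 538 and 518 in KMS34, 75.8 and 105 in KMS18, and 141 and 122 in OPM2. The 4 arrays of KMS11 and KMS34 were nearly level, and the gap was 2.01. SLFN11, a protein that blocks stressed replication forks, had line means of 181 in KMS11, 583 in KMS34, 48.3 in KMS18 and 46.4 in OPM2, with KMS34 the highest line. Among adhesion proteins, NRCAM had 200.4 in KMS11, 107 in KMS34, 29.6 in KMS18 and 30.0 in OPM2, and the membrane protein gene POPDC1 had 689 in KMS11, 297 in KMS34, 35.9 in KMS18 and 73.6 in OPM2. LAPTM4B, a lysosomal membrane protein, differed most within a side: its line means were 1586 in KMS11, 113 in KMS34, 33.2 in KMS18 and 34.0 in OPM2, so the side difference rested mainly on KMS11. Enzymes were represented by AGMAT, which splits agmatine, by ELOVL4, which lengthens very long fatty acids, and by SGPP1, which dephosphorylates sphingosine 1-phosphate, with gaps of 2.32, 2.16 and 2.14. Over the 20 higher genes with the widest gaps, the gap ran from 3.27-fold to 17.0-fold, and in all 20 no array of one side reached the other.

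**Figure D2:**
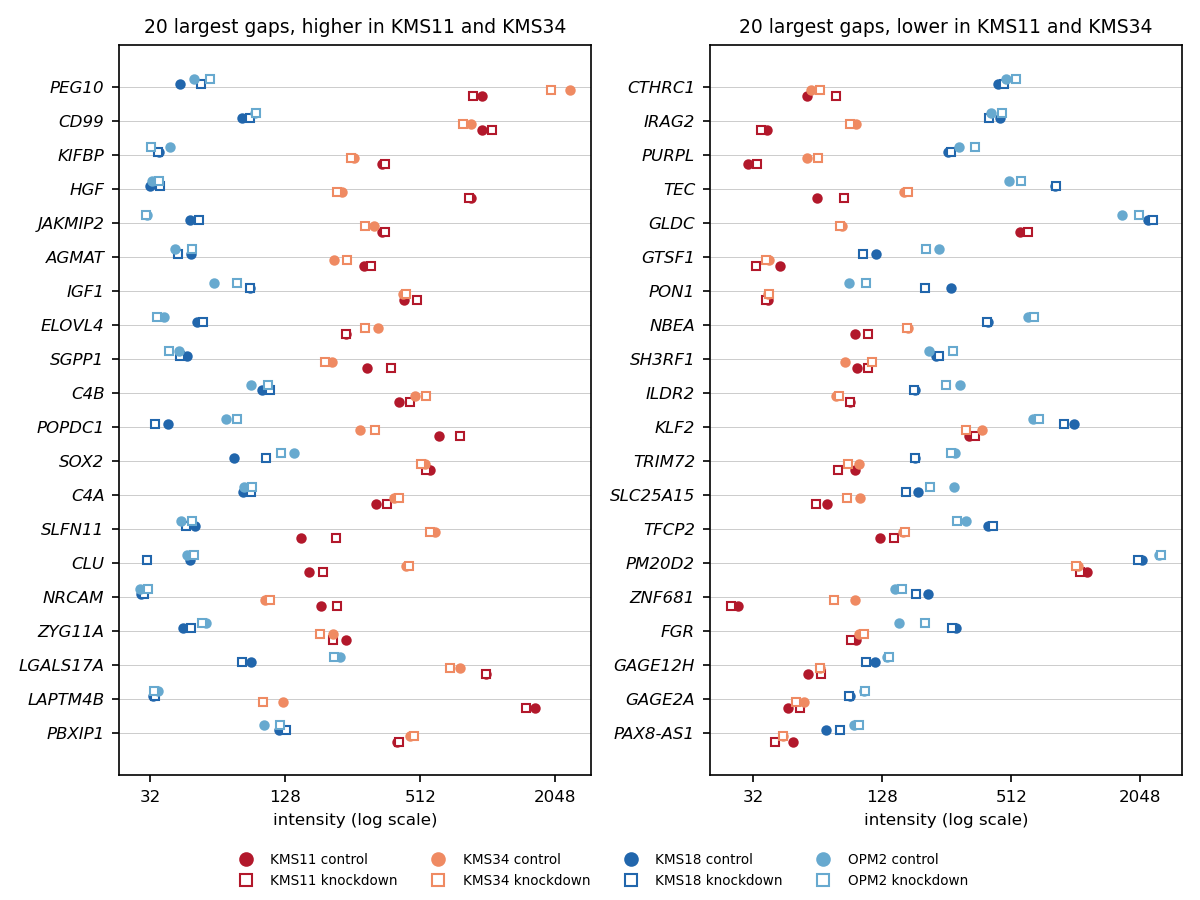
Points give the intensity (log axis) of each control (filled circle) and knockdown array (open square) for the 20 genes with the widest gap in each direction, coloured by line. In every gene shown the arrays of KMS11 and KMS34 (reds) lie apart from those of KMS18 and OPM2 (blues), while the circle and square of a line differ by up to 0.64 on the log2 scale (CLU in KMS18).

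Lower genes with wide gaps were fewer. CTHRC1, a secreted protein of matrix remodelling, gave 57.2 and 78.0 in KMS11, 59.9 and 65.4 in KMS34, 443 and 475 in KMS18, and 483 and 536 in OPM2. The lines of each side were close to each other, and the gap was -2.78 (6.87-fold). IRAG2, a membrane protein of the endoplasmic reticulum in lymphoid cells, gave 37.3 and 35.0 in KMS11, 96.8 and 90.7 in KMS34, 454 and 403 in KMS18, and 412 and 465 in OPM2, with KMS34 between KMS11 and the other lines and a gap of -2.19. PURPL, a long noncoding RNA known as a p53 target, had line means of 31.8 in KMS11, 60.7 in KMS34, 263 in KMS18 and 318 in OPM2. The gap was -2.12, the third widest in this direction.

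Signalling and metabolic genes followed. TEC, a nonreceptor tyrosine kinase of haematopoietic cells, gave 63.5 and 84.8 in KMS11, 162 and 168 in KMS34, 819 and 826 in KMS18, and 499 and 566 in OPM2, a gap of -1.69. FGR, a kinase of the SRC family, had line means of 94.3 in KMS11, 103 in KMS34, 277 in KMS18 and 176 in OPM2, a gap of -0.78. GLDC, the decarboxylase of the glycine cleavage system, gave 560.5 and 610.2 in KMS11, 83.2 and 81.3 in KMS34, 2232 and 2338 in KMS18, and 1682 and 2015 in OPM2; KMS11 was intermediate and KMS34 low, so the gap of -1.65 was much smaller than the difference of -3.23 between the means of the sides. The ornithine carrier gene SLC25A15 and the esterase gene PON1 had gaps of -0.90 and -1.37. Among transcription factors, KLF2, which restrains lymphocyte activation, had 335 in KMS11, 343 in KMS34, 954 in KMS18 and 668 in OPM2, and TFCP2 had 135 in KMS11, 162 in KMS34, 410.4 in KMS18 and 299.9 in OPM2. The scaffold genes NBEA and SH3RF1 had gaps of -1.24 and -1.15. In the 20 lower genes with the widest gaps the gap ran from 1.69-fold to 6.87-fold, and in all 20 the arrays did not overlap.

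Of 6 genes listed as MAF targets or MAF-group genes in myeloma, 4 were measured and 1 met the rule, against 48.5% of all genes. DEPTOR gave 1549 and 1473 in KMS11, 1851 and 1732 in KMS34, 347 and 466 in KMS18, and 467 and 488 in OPM2, so that KMS11 and KMS34 were 3.16-fold apart from the nearest line of the other side (gap 1.66). CCND2 gave 1158 and 1032 in KMS11, 856 and 793 in KMS34, 569 and 545 in KMS18, and 1077 and 897 in OPM2, with OPM2 above KMS34. CCR1 gave 446 and 569 in KMS11, 276 and 279 in KMS34, 56.3 and 78.0 in KMS18, and 481 and 499 in OPM2, with OPM2 level with KMS11, and only KMS18 was low. CX3CR1, a fractalkine receptor, was dim, with line means of 71.4 in KMS11, 70.2 in KMS34, 59.7 in KMS18 and 102 in OPM2. The median difference between sides over the 4 genes was 0.71 on the log2 scale, against -0.02 over all genes. ITGB7 and the remaining gene of the list were not analysed here.

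**Figure D3:**
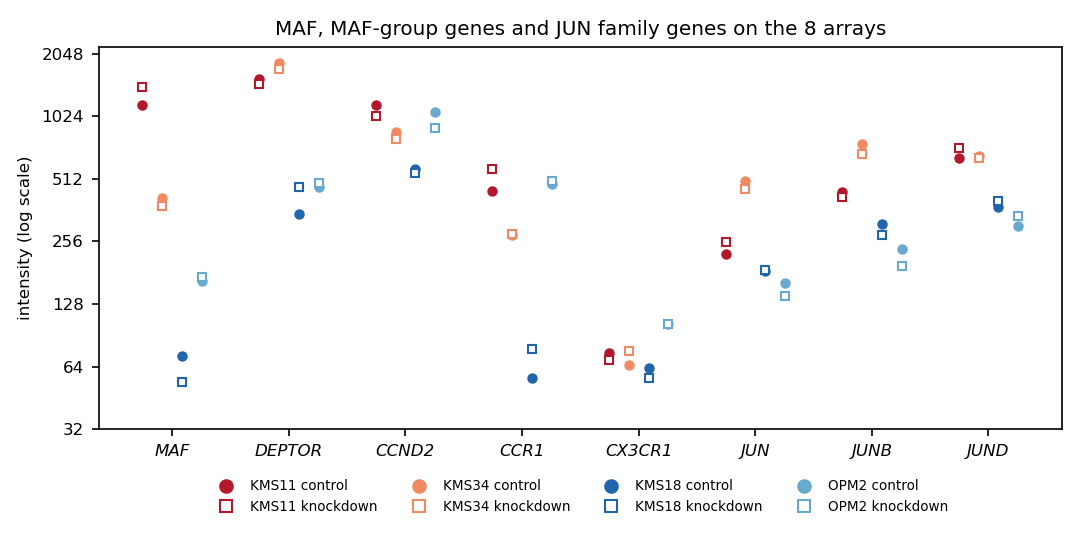
Intensity (log axis) of MAF, 4 MAF-group genes and 3 JUN family genes on the 8 arrays, coloured by line, with filled circles for control and open squares for knockdown arrays. MAF, DEPTOR, JUN, JUNB and JUND have both red lines above both blue lines, whereas OPM2 lies among the red lines for CCND2 and CCR1.

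Of 24 listed MAF family and partner leucine zipper genes 16 were measured, with a median side difference of 0.19. Of these, 5 were higher and 6 lower, against 19.1% and 29.4% of all genes. All 3 JUN genes were higher: JUND gave 645 and 723 in KMS11, 662 and 648 in KMS34, 376 and 400.5 in KMS18, and 303 and 341 in OPM2 (gap 0.76), JUNB gave 445 and 420.5 in KMS11, 752 and 678 in KMS34, 312 and 274 in KMS18, and 234 and 195 in OPM2 (gap 0.56), and JUN had line means of 238 in KMS11, 476 in KMS34, 185 in KMS18 and 149.9 in OPM2 (gap 0.36). The FOS genes FOS, FOSB, FOSL1 and FOSL2 were all among the lower genes but dim, with gaps between -0.13 and -0.04. Within the MAF family, the small MAF gene MAFF was higher by a gap of 0.01 only, and MAFA and NRL were lower by gaps of -0.07 and -0.01. The NF-E2-related genes NFE2L1, NFE2L2 and NFE2L3 and the small MAF gene MAFG did not separate the sides. Of 3 measured genes that MAF drives in other lineages, the cytokine gene IL21 was lower by a gap of -0.01 at the bottom of the intensity range, and IL4 and IL10 were not members.

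Promoter sequence was compared next, because MAF and JUN proteins bind defined elements. RefSeq windows on GRCh38.p14, 250 bases before to 50 after a transcription start, were matched for 10736 of the 14812 genes, with the first listed window used for the 2663 genes that have several. The motif TGCTGAC, the part of a MAF recognition element that joins its flank to the core, occurred on either strand in 3.72% of all windows, in 3.28% of those of the higher genes and in 3.95% of those of the lower genes. At gaps of at least 0.5 it occurred in 5 of 267 higher genes (1.87%) and in 0 of 57 lower genes. The AP-1 motif TGANTCA occurred in 6.05% of all windows, in 5.15% of the higher and in 8.11% of the lower genes. At gaps of at least 0.5 it occurred in 14 of 267 higher genes (5.24%) and in 2 of 57 lower genes (3.51%), so the larger share among lower genes was not seen there. The 2 motifs can overlap, since TGCTGAC may run into an AP-1 core. A match describes letters only, and the windows leave out distant enhancers.

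The 5 matches at the wider gaps are shown because they are all the higher genes that combine a gap of at least 0.5 with this motif; they were named after their values were seen. Each line gives up to 20 bases on either side, in the direction of the gene, with the motif or its reverse complement in capitals.

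TMEM63C (chr14:77181713-77181759, plus strand, gap 1.07): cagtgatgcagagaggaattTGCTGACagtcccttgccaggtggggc

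RND3 (chr2:150487873-150487917, minus strand, gap 0.93): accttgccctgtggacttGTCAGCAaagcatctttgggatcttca

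INSIG2 (chr2:118088244-118088290, plus strand, gap 0.73): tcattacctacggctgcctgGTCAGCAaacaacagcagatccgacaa

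EHD3 (chr2:31233940-31233986, plus strand, gap 0.55): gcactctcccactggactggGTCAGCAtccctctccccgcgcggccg

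ESR1 (chr6:151656517-151656563, plus strand, gap 0.54): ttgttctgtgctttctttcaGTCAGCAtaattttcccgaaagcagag

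The match began 65 bases before the start in TMEM63C, 232 in RND3, 207 in INSIG2, 192 in EHD3 and 135 in ESR1. TMEM63C, a membrane channel protein, had line means of 259.9 in KMS11, 233 in KMS34, 111 in KMS18 and 105 in OPM2, and RND3 had 86.2 in KMS11, 79.2 in KMS34, 41.5 in KMS18 and 38.4 in OPM2. INSIG2, which holds sterol sensors in the endoplasmic reticulum, had 293 in KMS11, 333 in KMS34, 176 in KMS18 and 157 in OPM2. EHD3, a protein of endosome recycling, and ESR1, the oestrogen receptor, were dim, with their brightest line means at 95.3 and 111 in the higher lines. None of the 20 higher genes with the widest gaps held TGCTGAC in the 13 windows matched, and 1 held TGANTCA. That gene was NRCAM, whose window belongs to a start inside the longest annotated transcript; it is shown with the AP-1 match in capitals, 60 bases before that start. The upstream window of MAF, which had neither motif, is given beside it.

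NRCAM (chr7:108243386-108243635, minus strand): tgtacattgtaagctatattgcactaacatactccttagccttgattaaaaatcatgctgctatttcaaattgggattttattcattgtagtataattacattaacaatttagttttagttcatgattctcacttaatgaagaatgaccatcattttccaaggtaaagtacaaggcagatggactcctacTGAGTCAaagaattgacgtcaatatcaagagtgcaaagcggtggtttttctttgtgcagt

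MAF (chr16:79600738-79600987, minus strand): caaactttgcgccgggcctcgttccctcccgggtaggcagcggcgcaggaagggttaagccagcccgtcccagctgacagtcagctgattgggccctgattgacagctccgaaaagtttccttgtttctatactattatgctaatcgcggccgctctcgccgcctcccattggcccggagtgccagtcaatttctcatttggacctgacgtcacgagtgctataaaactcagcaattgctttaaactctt

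Of 12 measured genes of FGFR and MAP kinase output 0 were higher and 4 were lower, where 19.1% and 29.4% of all genes were, with a median side difference of -0.21. DUSP6, a phosphatase induced by ERK, gave 85.0 and 97.0 in KMS11, 71.3 and 76.7 in KMS34, 130.2 and 127 in KMS18, and 180.0 and 227 in OPM2 (gap -0.50). SPRY2, a feedback inhibitor of receptor tyrosine kinases, had line means of 67.7 in KMS11, 53.4 in KMS34, 94.6 in KMS18 and 92.6 in OPM2. DUSP2 and EGR3 separated by smaller gaps of -0.12 and -0.08. DUSP4 was highest in OPM2, with 196 in KMS11, 82.4 in KMS34, 82.4 in KMS18 and 708 in OPM2, and did not meet the rule. FGFR3 itself overlapped between the sides, as given above.

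Plasma cell identity genes showed 0 higher and 3 lower members among 11 measured, against 19.1% and 29.4% of all genes. CD38, the ectoenzyme targeted by therapeutic antibodies, gave 50.6 and 83.2 in KMS11, 168 and 168 in KMS34, 416 and 365 in KMS18, and 251 and 278 in OPM2 (gap -0.65, side difference -1.62). The KMS11 arrays were lowest, and bulk RNA does not tell fewer expressing cells from less RNA per cell. SLAMF7, a surface receptor of plasma cells, had line means of 854 in KMS11, 950.0 in KMS34, 1097 in KMS18 and 1591 in OPM2 (gap -0.21), and CD27 was dim. IRF4, XBP1 and SDC1 did not separate the sides. Among 13 B cell genes 1 was higher and 4 lower, against the same shares of all genes. BCL6, the germinal centre repressor, was higher with 97.6 in KMS11, 176 in KMS34, 48.1 in KMS18 and 53.7 in OPM2 (gap 0.86), whereas PAX5, CD22, CXCR5 and EBF1 were lower with gaps between -0.21 and -0.01 at dim intensities.

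Survival genes of the BCL2 family differed in direction. BCL2L1, which encodes BCL-XL, gave 1022 and 996 in KMS11, 718 and 645 in KMS34, 426 and 417 in KMS18, and 123 and 149.8 in OPM2 (gap 0.69), and BCL2 gave 686 and 867 in KMS11, 322 and 303 in KMS34, 1220.1 and 1113 in KMS18, and 1006 and 1141 in OPM2 (gap -0.47). Each gene had 1 line far from its partner: OPM2 was lowest for BCL2L1, and KMS34 was lowest for BCL2. BCL2L11, the BH3-only gene of BIM, was higher by a gap of 0.12, and MCL1 was not a member, with 927 in KMS11, 739.8 in KMS34, 762 in KMS18 and 766 in OPM2. Over the 14 measured genes 2 were higher and 1 lower, against 19.1% and 29.4% of all genes, with a median side difference of 0.13. In the NF-kB list 2 of 10 measured genes were higher and 0 lower, namely MAP3K14 and NFKB2, with gaps of 0.08 and 0.00.

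Of 34 listed integrin and adhesion genes 9 were measured, and 0 had a gap of at least 0.5. No integrin gene was among these 9, so the list describes other adhesion genes only. Of these 9 genes 4 were higher and 2 lower, against 19.1% and 29.4% of all genes. ICAM1, a ligand of leukocyte integrins, had line means of 1045 in KMS11, 535 in KMS34, 442 in KMS18 and 79.4 in OPM2, so that KMS18 lay close to KMS34 (gap 0.28). CD44, the hyaluronan receptor, had 84.9 in KMS11, 234 in KMS34, 71.4 in KMS18 and 69.5 in OPM2, and its side difference rested on KMS34. SELPLG, the P-selectin ligand, and JAM3 had gaps of 0.08 and 0.02. Chemokines and their receptors had 0 higher and 7 lower members among 17 measured, against the same shares of all genes. CCR10, a receptor of plasma cells homing to mucosa and skin, had 82.3 in KMS11, 82.1 in KMS34, 276 in KMS18 and 109.7 in OPM2 (gap -0.41), and the other 6 lower genes had gaps between -0.21 and -0.02. These 6 genes were dim, with line means from 21.9 to 93.6. Lower genes made up 39.5% of the dimmest and 44.5% of the second brightness class, and the list was not compared by class.

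Notch receptors differed among themselves. NOTCH1 gave 118 and 101 in KMS11, 119.9 and 111 in KMS34, 219 and 191 in KMS18, and 188 and 193 in OPM2 (gap -0.72), and NOTCH3 had line means of 84.9 in KMS11, 84.8 in KMS34, 126 in KMS18 and 137 in OPM2 (gap -0.57), so both were lower in KMS11 and KMS34. NOTCH2 was higher there, with 377 in KMS11, 314 in KMS34, 259.7 in KMS18 and 159 in OPM2 (gap 0.27). Of 20 measured Notch pathway genes 1 was higher and 7 were lower, against 19.1% and 29.4% of all genes. Their median side difference was -0.06. Of 14 genes of the Wnt pathway and bone disease, HGF was the sole higher member and 6 were lower, of which LRP5 had 193 in KMS11, 78.7 in KMS34, 207 in KMS18 and 243 in OPM2; the bone disease factor DKK1, a Wnt antagonist, did not separate the sides.

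Of 12 mitosis genes 0 were higher and 1, MKI67, was lower by a gap of -0.01. The shares over all genes, beside this and the following lists, were 19.1% higher and 29.4% lower. Of 9 measured D-type cyclins, partners and inhibitors, CDKN2A was higher by 0.10 and RBL1 lower by -0.08. Interferon response genes gave 1 higher and 3 lower among 13. The lists of other cell types followed the dim genes: T and NK cell markers had 1 higher and 6 lower of 10, myeloid markers 0 and 6 of 9, and stromal and endothelial markers 0 and 3 of 4. Their summed intensities were alike in all lines, at 764 to 865 for T and NK cells, 1230.2 to 1418 for myeloid cells and 145 to 156 for stromal cells. Here TRAT1, a T cell receptor adaptor, was the one with a wide gap, with line means of 68.1 in KMS11, 125 in KMS34, 40.0 in KMS18 and 34.2 in OPM2 (gap 0.77), and S100A9 was lower by -0.36. No HLA class II gene was among the genes measured here.

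Gene families are given beside the higher and lower shares of the brightness class that holds their median intensity. All 7 measured GAGE genes, cancer-testis antigens on the X chromosome, were lower, with a median of 70.9 in the second class (12.4% and 44.5%). GAGE12H had line means of 61.8 in KMS11, 65.9 in KMS34, 113 in KMS18 and 136 in OPM2. Near-identical family members cannot be told apart on such arrays. Zinc finger genes named ZNF gave 125 higher (25.5%) and 84 lower (17.1%) of 491 at a median intensity of 82.1. That median lies near the upper end, at 85.4, of the second class (12.4% and 44.5%). The third class held 23.1% and 24.4%, and the family was not split by class. Solute carrier genes, with a median of 103 in the third class, gave 5 higher (13.5%) and 7 lower (18.92%) of 37. Both shares lay below those of that class (23.1% and 24.4%), a difference that was not tested. Mitochondrial ribosomal protein genes gave 23 higher (29.9%) and 6 lower (7.79%) of 77, and cytosolic ribosomal protein genes 14 (28%) and 5 (10%) of 50. Both families are bright, with median intensities of 217 and 240, and their shares were near those of the brightest class (29.3% and 9.32%). Keratin-associated protein genes, with a median of 35.9, gave 9 higher (10.6%) and 35 lower (41.2%) of 85, near the dimmest class (11.5% and 39.5%). MicroRNA genes, with a median of 31.6 in the same class, gave 181 higher (17.3%) and 391 lower (37.3%) of 1047. A gap of at least 0.5 was reached by 4 higher and 20 lower microRNA genes, of 339 and 90 such genes in all. In the dimmest class as a whole only 1 higher and 1 lower gene had such a gap. MicroRNA symbols were left out of the lists of widest gaps.

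Position along the genome was uneven. Of 11104 tested genes with a position, 21.6% were higher and 26.1% lower in KMS11 and KMS34. On chromosome 7, which carries PEG10, HGF and NRCAM, 34.6% were higher and 16.7% lower, and on chromosome 12, which carries IGF1, 29.2% and 20.8%. Lower genes prevailed on chromosome 13 (8.33% higher, 39.6% lower), chromosome 11 (8.82% and 35.6%), chromosome 21 (12.1% and 42.4%) and chromosome 20 (18.2% and 39.0%). Runs of neighbours were sought among tested genes, so measured genes too dim for the test were skipped. The longest run was 13 lower keratin and keratin-associated genes on chromosome 17 (40958417 to 41518890), with a median intensity of 55.3. Its gaps were small, from 0.002 to 0.299 in size, and its median lies in the second brightness class, where 44.5% of genes were lower. Next came 9 higher genes on chromosome 15 (32765544 to 34988287) from FMN1 to ZNF770, with a median of 372 and gaps from 0.006 to 0.600. A run of 8 higher genes on chromosome 12 (102073103 to 104106524) held NUP37, PARPBP, IGF1, NT5DC3, TTC41P, UQCC6, TDG and HCFC2. Within it IGF1 had a gap of 2.29 and the others gaps of at most 0.26. The part of chromosome copy number in these shares was not tested, since the arrays measured RNA alone.

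**Figure D4:**
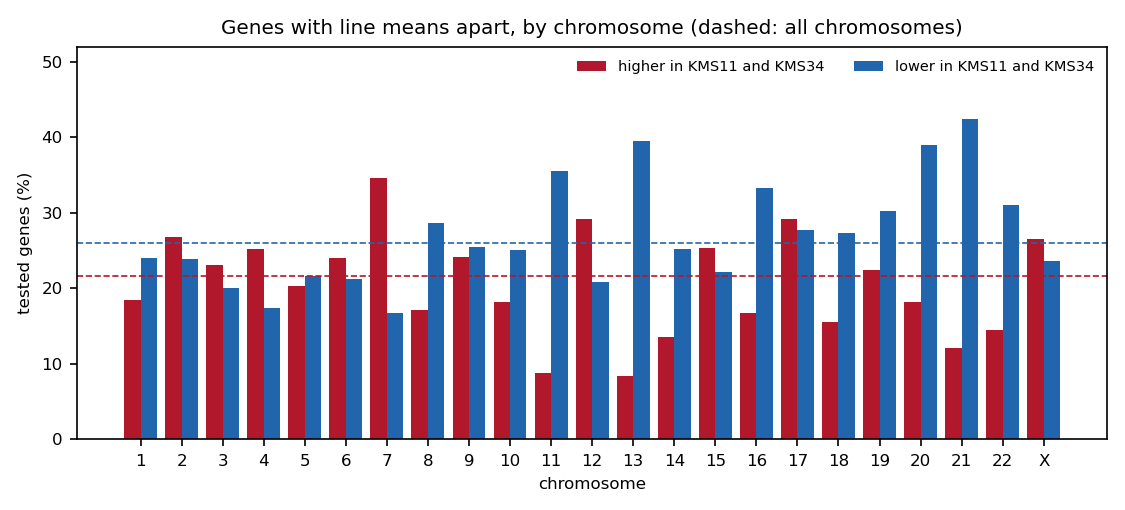
Bars show, for chromosomes 1 to 22 and X, the percentage of tested genes whose line means were higher (red) or lower (blue) in KMS11 and KMS34, with dashed lines at the shares over all of them (21.6% and 26.1%). Chromosome 7 has the tallest red bar, at 34.6%, and chromosome 21 the tallest blue bar, at 42.4%.

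A few genes had line means most like those of MAF. Over the 4 line means, centred on each gene's own mean, the smallest root mean square distance from MAF was that of POPDC1, at 0.282 on the log2 scale, then LGALS17A, a galectin pseudogene, at 0.447, NDNF at 0.525, SIK1, a salt-inducible kinase, at 0.608, and NRCAM at 0.624. POPDC1, LGALS17A, NDNF and NRCAM shared MAF's order of lines, whereas SIK1 had line means of 1142 in KMS11, 422 in KMS34, 135 in KMS18 and 118 in OPM2, with KMS18 above OPM2. These likenesses rest on 4 points and are a description.

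The knockdown gave a comparison that the choice of genes did not use, since each line had a control and a knockdown array. Over the 4 lines 13 of 11109 tested genes passed (limma adjusted p under 0.05, 0.117%), 2 higher and 11 lower after knockdown. Of the 2400 tested genes higher in KMS11 and KMS34, 7 passed (0.292%), and of the 2897 tested lower genes 0 passed. At an unadjusted p under 0.05 the counts were 263 (11.0%) and 166 (5.73%), against 934 of all tested genes (8.41%). Among the 5812 tested genes that did not separate the sides, 1 rose and 5 fell past the adjusted threshold (0.103%), and 505 (8.69%) had such an unadjusted p. Higher and lower genes differed in brightness, as given above, and these shares were not compared within brightness classes. The median change was 0.00 among the higher and -0.01 among the lower genes. The genes that separated the lines most did not pass: in the 20 higher genes with the widest gaps the change ran from -0.12 to 0.17 (smallest limma adjusted p 0.483), and in the 20 lower genes from -0.24 to 0.25 (smallest limma adjusted p 0.299).

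GLO1, the glyoxalase that removes methylglyoxal, was the member with the strongest response. It gave 1086 and 694 in KMS11, 1015 and 641 in KMS34, 882 and 514 in KMS18, and 799 and 416 in OPM2, lower on the knockdown array in 4 of 4 lines. The mean change was -0.76 on the log2 scale (SE 0.0689, n = 4 lines, limma adjusted p = 0.00142). Its gap between the sides was small, at 0.26, so each knockdown array of KMS11 and KMS34 lay below every control array of KMS18 and OPM2. Of the 4 measured glyoxalase pathway genes GLO1 alone was a member, and HAGH, LDHD and PARK7 did not pass the knockdown test.

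UGT8, which makes galactosylceramide, was the one member that rose. It gave 296 and 444 in KMS11, 398 and 494 in KMS34, 129.9 and 163 in KMS18, and 43.2 and 59.0 in OPM2, higher on the knockdown array in every line by a mean of 0.42 (SE 0.0677, limma adjusted p = 0.0422), and its gap between the sides was 1.32. KLF9, a Kruppel-like transcription factor, gave 378 and 270.0 in KMS11, 375 and 277 in KMS34, 241 and 183 in KMS18, and 110.2 and 89.8 in OPM2, a fall of 0.40 (SE 0.0632, limma adjusted p = 0.0422). RRP1B, a nucleolar protein of ribosome processing, fell by 0.44, KPNA6, an importin alpha, by 0.42, MAP3K3, a kinase of the MAP kinase cascade, by 0.46 and the microRNA gene MIR5047 by 0.45, all with limma adjusted p between 0.0422 and 0.0473. Leaving out any 1 of the 4 lines left 1 or 2 calls among all genes. GLO1 passed each time, with a limma adjusted p of 0.00195 without KMS11, 0.00432 without KMS34, 0.0396 without KMS18 and 0.0319 without OPM2. UGT8, KLF9, RRP1B, KPNA6 and MAP3K3 did not pass in any of these 4 fits. Without the filter on dim genes these 5 genes also missed the threshold, with limma adjusted p = 0.121 for UGT8, 0.102 for KLF9 and RRP1B, 0.117 for KPNA6 and 0.158 for MAP3K3, while GLO1 passed (0.0166). KPNA6 and MAP3K3 also missed it under quantile normalization (limma adjusted p = 0.0513 and 0.0514).

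**Figure D5:**
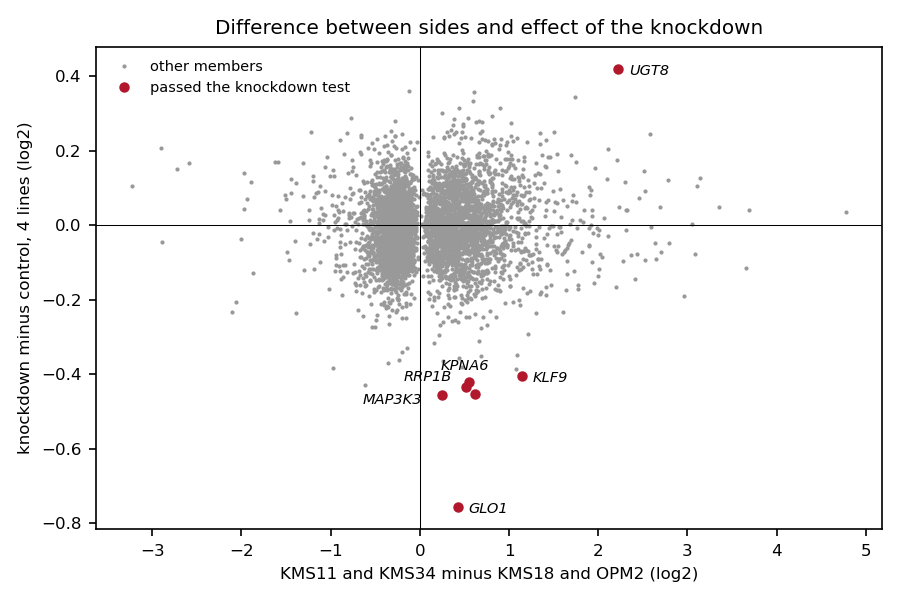
Each point is a tested gene that separated the sides, with the difference between sides (x axis, log2) and the mean change after knockdown over 4 lines (y axis, log2). Red points passed limma's test. Genes that did not separate the sides are not shown. The 7 red points all lie to the right of 0, among genes higher in KMS11 and KMS34, with GLO1 lowest at -0.76 and UGT8 highest at 0.42, and the unlabelled red point is the microRNA gene.

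Whether the knockdown acted differently on the 2 sides was tested as an interaction. No gene passed: 0 of 11109 (0%), with a smallest limma adjusted p of 0.998, and 0 with limma's trended and robust variance. At an unadjusted p under 0.05 there were 433 genes (3.9%), of which 90 were among the higher genes (3.75% of those tested) and 134 among the lower genes (4.63%). Without KMS11 the interaction gave 2 calls and without KMS34 it gave 5, with 1 line left to stand for the MAF-higher side; without KMS18 or OPM2 it gave 0. For GLO1 the difference of the changes was 0.20 (SE 0.132, limma adjusted p = 0.998). Its change was -0.66 in KMS11 and KMS34 (SE 0.0931, limma adjusted p = 0.144) and -0.86 in KMS18 and OPM2 (SE 0.0931, limma adjusted p = 0.0233), where it was the only call (0.009%). Within KMS11 and KMS34 limma called 0 genes, where 720 had an unadjusted p under 0.05, and 3 with the trended and robust variance.

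The members with the smallest unadjusted interaction p were mostly dim lower genes. CABP5, a calcium-binding protein, gave 68.9 and 95.5 in KMS11, 80.0 and 112 in KMS34, 127 and 119 in KMS18, and 112 and 98.9 in OPM2, an interaction of 0.61 (SE 0.128, limma adjusted p = 0.998). Its knockdown arrays were above the controls in KMS11 and KMS34 and below them in KMS18 and OPM2. RUFY4, SH3GL1P1 and GGN had interactions of 0.56, 0.53 and 0.50 in the same direction. NKAP, a nuclear repressor, gave 259 and 200.4 in KMS11, 129 and 106 in KMS34, 94.7 and 102 in KMS18, and 76.8 and 109 in OPM2, an interaction of -0.63, and CD300LF, CD34 and TEKT5 had -0.55, -0.51 and -0.51. None of these passed the adjustment over all genes. PEG10, the gene with the widest gap, had an interaction of -0.49 (SE 0.132, limma adjusted p = 0.998).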

How the data were processed

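RNA of 8 cultures, 1 control and 1 knockdown of each of 4 myeloma lines, was read on Affymetrix Human Gene 2.0 ST arrays. The deposited table holds linear intensity values of 44629 rows, judged linear from their range of 18.9 to 13166. Per the labels the authors used GeneSpring; background correction, normalization and summarization are not given in the sources used here, and no raw signal or detection call was used. Rows with exactly 1 gene symbol in the platform annotation (15835; 28794 have none) were kept, with the brightest row per gene, and log2 of the deposited intensity was taken.

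The members and the gene lists were chosen with earlier results of these data known. Genes named are MAF, NSD2, FGFR3 and GLO1, up to 20 members per direction by gap, up to 4 per list and direction, members passing a test, up to 4 per sign by interaction p, those at the edge of the rule, the 5 most like MAF and the 3 longest runs of neighbours. Others in the lists are named with values as non-members, and the promoter matches were chosen after their values were seen. Small RNA, LOC and unnamed reading frame symbols were left out of the gap lists.

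Knockdown and its interaction with side were tested with limma 3.58.1 in R 4.3.3 on the 11109 genes above the 25th percentile of mean log2 value (3703 were left out), with line as a block, Benjamini-Hochberg adjustment and a threshold of 0.05. Lines are the replicates. The pairing follows the line in the labels, and both arrays of a line correlated at 0.991 to 0.993. The procedure was tested on simulated data. Gene positions are RefSeq's on GRCh38.p14. The number of arrays limits precision. Alternatives covered scaling, filter, row choice, arrays used, variance model, block and leaving out lines.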

Additional observations from a re-analysis of the deposited data

Results flagged for a closer look

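In the values of named genes by line, a line stood apart from the other 3 in 14 of 363 groups of 4. A chance count of about 18.15 would hold only for groups not chosen by their values. Of the 130 named genes, 124 met the rule that both lines of a side lie beyond the other side. That rule works against a lone line standing apart in intensity, so the count cannot be judged against chance. No pattern is read from these groups. After knockdown, the log2 change in KMS11 stood apart for CTHRC1 (0.4472), SGPP1 (0.3477) and CD7 (-0.3162). In KMS34 it stood apart for CD27 (0.3872), SFRP5 (0.2878), FGFR3 (-0.2548) and BCL2L11 (-0.2313), and in OPM2 for SLC25A15 (-0.3688). Among control arrays, the log2 intensity was apart in KMS34 for CD44 (7.858, the highest line) and S100A9 (6.591, the lowest), in OPM2 for MAFA (7.062, highest) and in KMS11 for SERGEF (6.196, lowest). Among knockdown arrays, NKAP was highest in KMS11 (7.646) and VWF in KMS18 (5.961).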

How the results depend on the processing

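The number of genes that separated the sides depended on how a line was represented and on the dim genes. The 2826 higher and 4358 lower genes became 1678 and 2041 when all arrays had to be apart, 339 and 90 at a gap of at least 0.5, and 80 and 10 at a gap of at least 1. Lower genes numbered 2897 above the 25th percentile and 1249 above the 50th, where the higher genes were 1941. With 1 line left out, an alternative chosen after seeing the data, the higher genes ranged from 4621 to 4966 (4818 without KMS11 and also without OPM2) and the lower from 6021 to 6378, since fewer lines have to agree. Quantile normalization gave 2552 and 4198 and retained 2080 (73.6%) and 3524 (80.9%) of the same genes, among them all 339 and 90 with a gap of at least 0.5.

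The 13 knockdown calls became 4 without the filter on dim genes, 29 with a trended and robust variance, and 1 to 2 when a line was left out. Without the replicate block, that is, ignoring the pairing by line, there were 0 calls by limma, with 18 genes at an unadjusted p under 0.05. Interaction calls ranged from 0 to 5 when a line was left out. Within KMS11 and KMS34 there were 3 calls with the trended and robust variance, and within KMS18 and OPM2 0 without the filter.

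Leaving out a line reversed 0 of 520 side differences of named genes, an outcome that the rule fixes. Reversal was counted for members only, and both their lines of a side lie beyond the other side. Of 650 side differences recomputed with all lines, 585 moved by less than the spread between lines, 59 moved further and 6 reversed. The reversed ones were KIF5A at 0.0045 under quantile normalization and 0.011 on control arrays, TEKT5 at 0.016 on control arrays, and RUFY4 at 0.11, VCAM1 at 0.057 and GGN at 0.049 on knockdown arrays. The cause of these changes was not tested. Raw signals were not used here, so signal over background is unknown.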

Other observations

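Rows without a gene symbol, which were left out above, separated the sides as well. Of 28794 such rows 4171 were higher and 10994 were lower in KMS11 and KMS34 by the same rule, and 62 and 33 had a gap of at least 1. The widest gaps among them were 6.10 (higher) and 6.80 (lower) on the log2 scale, wider than the 4.09 of PEG10 and the 2.78 of CTHRC1 in size. They are unnamed here.

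Control and knockdown arrays taken alone chose overlapping genes. Control arrays gave 2828 higher and 3920 lower genes, and knockdown arrays 2836 and 3818. Of these, 1952 higher genes were shared (69.0% of the control set and 68.8% of the knockdown set), as were 2499 lower genes (63.8% and 65.5%). At a gap of at least 1 on control arrays, all 81 higher and all 10 lower genes also separated the sides on knockdown arrays. Both kinds of array come from the same lines, so the overlap describes these lines and is no replication in others.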
